A study of Rattus norvegicus with 9 samples.

Results

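The 2087 regions described here are the autosomal regions, on chromosomes 1 to 20, in which the deposited comparison of proestrus females with males lists a different Egr1 ChIP-seq signal in the rat medial prefrontal cortex (mPFC). They were taken as every row of that comparison on an autosome, which is 2087 of its 3225 rows and of the 5690 rows of all 3 comparisons of the series. The other 1138 rows of the comparison lay on chromosome X, apart from 1 mitochondrial row, and were left out. Direction was read from the deposited group means, and proestrus exceeded males in 1885 of the 2087 regions (90.3%, Wilson 95% interval 89.0% to 91.5%), while 202 (9.68%, interval 8.48% to 11.0%) were lower. Over all rows of the comparison, 93.6% were higher in proestrus.

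The animals were adult Sprague-Dawley rats without any drug or genetic manipulation. Females were followed by vaginal smears, and the proestrus group (n = 2 libraries) was collected in proestrus, the phase of the cycle with high ovarian hormone levels. Males (n = 3 libraries) were collected on the same days as females, and diestrus females (n = 4 libraries), collected at low hormone levels, enter below as values set beside those of both groups. Chromatin came from tissue punches of the mPFC, which hold neurons, glia, and vascular cells together, so that more cells with a bound site and more binding per cell cannot be told apart. The female and male groups also differ in sex, and effects of sex and of the cycle cannot be told apart in this comparison alone. The labelled tissue could not be checked against expression markers, since the tables hold chromatin regions and no expression.

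Egr1, early growth response 1, is a zinc-finger transcription factor and the product of an immediate early gene that neurons switch on after synaptic activity. It binds GC-rich DNA, classically at the 9-base element GCGTGGGCG, and is known for its part in long-term synaptic plasticity and memory. In ChIP-seq, fragments of chromatin bound by an antibody to the factor are sequenced, and the number of reads that fall in a region is taken as its signal. The tables used here give, for each region, the normalized reads of every library, the mean of each group, and an enrichment of that mean over a background.

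Each library value was a whole multiple of a constant, which is the value of 1 read in that library. All 10435 values of the autosomal regions lay within 0.1 of a whole number of reads. A single read was worth 1.65 and 0.811 normalized reads in the proestrus libraries, and 1.39, 0.917, and 0.634 in the male libraries, so that the highest constant was 2.03 times the lowest in proestrus and 2.19 times in males. These constants include a normalization that the sources do not describe, and they are not a measure of sequencing depth. The library lists carry no sample names, and libraries are referred to by their place in the list. Reads recovered in the autosomal regions numbered 9132 and 18556 in proestrus and 4011, 5333, and 7265 in males. These sums follow from what was listed and are not library sizes.

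In the 1885 regions higher in proestrus, the proestrus mean had a median of 7.34 normalized reads and ranged from 5.31 to 57.65, whereas the male mean had a median of 1.03 and ranged from 0 to 10.54. The median region held 4 and 9 reads in the proestrus libraries and 1 read in each of the male libraries. In the 202 regions lower in proestrus, the male mean had a median of 7.47 and ranged from 6.22 to 692.53, against a proestrus mean with a median of 0 and a maximum of 258.06. Here the median region held 5, 8, and 13 reads in the males and none in either proestrus library. The libraries of the groups did not overlap in any of the 2087 regions, nor in any other row of the comparison (100% of all rows), and this separation is a property of how the regions were listed. The smallest gap between the lowest library of the higher group and the highest library of the other was 0.18 normalized reads among higher regions and 3.04 among lower regions. The lowest proestrus library was at least 2 times the highest male library in 1701 of the 1885 higher regions, and the lowest male library at least 2 times the highest proestrus library in 199 of the 202 lower regions.

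**Figure D1:**
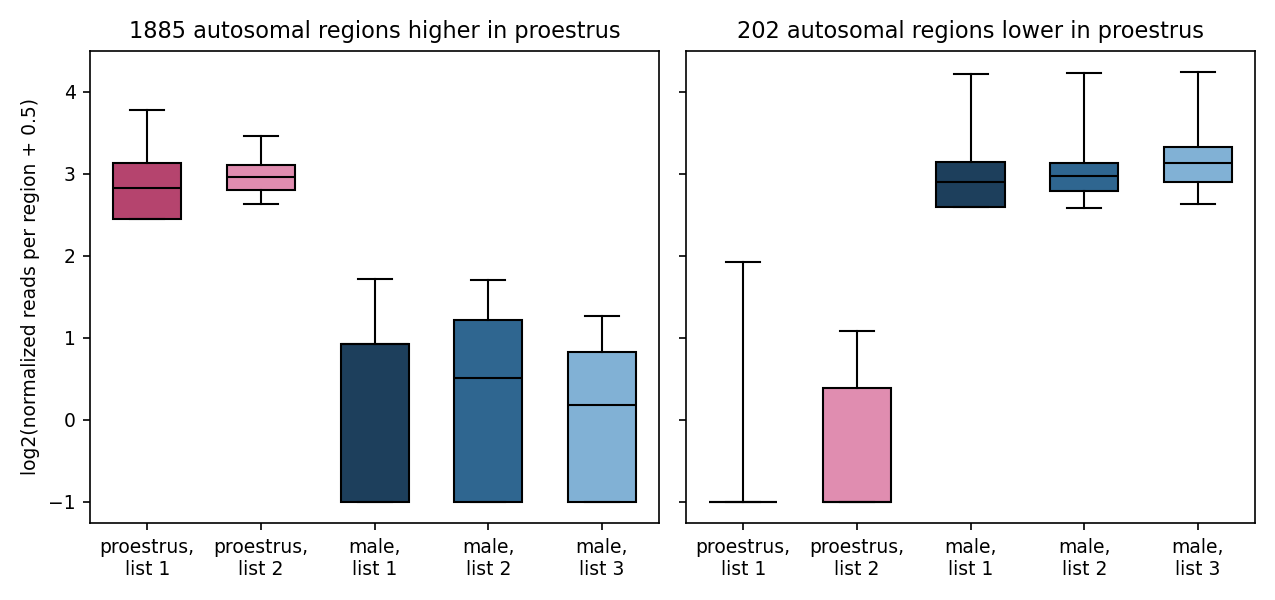
Box plots of log2(normalized reads per region + 0.5) in each library for the 1885 regions higher (left) and the 202 regions lower (right) in proestrus, with the median, the quartiles, and whiskers from the 5th to the 95th percentile. In higher regions the male medians are 1.39, 0.92, and 0.63 normalized reads and those of proestrus 6.6 and 7.3; in lower regions both proestrus medians are 0, and a median can coincide with an edge of its box.

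The size of the difference was described over regions with a signal in both groups. The median log2 ratio of proestrus to male means was 2.86 over 1817 higher regions, with quartiles of 2.46 and 3.34 and a range from 1.39 to 5.77. It was -3.47 over 78 lower regions, with quartiles of -4.28 and -3.19 and a range from -4.68 to -0.82. Regions listed at 0 in the lower group were 68 of the higher regions (3.61%) and 124 of the lower regions (61.4%). With 3 reads over the group as the floor, at the largest value of a read among its libraries, these 124 regions were at least 2.51-fold to 10.01-fold lower in proestrus. Such bounds, also given for single regions below, take the mean of the other group as exact. They make no allowance for regions having been listed for this difference, and are no guaranteed minimum. With every mean of the lower group under the floor raised to it, which held for 191 lower and 1451 higher regions, the median log2 ratio was -1.58 over all lower regions and 2.32 over all higher regions. A further 912 higher and 66 lower regions held 1 to 3 reads in the lower group. Where at least 4 reads were present there, the median log2 ratio was 2.46 over 905 higher regions and -2.06 over 12 lower regions. Leaving out the second proestrus library moved the median of the lower regions to -2.27, and leaving out the first moved it to -3.30. A lower region without a read in the kept library has no ratio, so these medians cover fewer than the 78 regions. The value of 1 read also differs, at 1.65 in the first library and 0.811 in the second.

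The spread between libraries of the higher group is given as a description, since the regions were listed for a difference between these same libraries, which favors regions of small spread. The coefficient of variation between the proestrus libraries had a median of 16.9% (n = 2, quartiles 7.12% and 32.6%) over higher regions, and that between male libraries a median of 18.5% (n = 3, quartiles 13.1% and 22.9%) over lower regions. The first proestrus library was above the second in 863 of the 1885 higher regions (45.8%).

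The reads behind a region differed between the directions. Higher regions held 10 to 117 reads over all libraries, with a median of 17, whereas no lower region held fewer than 22, and their median was 26 with a maximum of 2805. Among the 599 regions with at least 20 reads, 397 were higher in proestrus and 202 lower, a share of 66.3% higher. Among the 204 regions with a mean of at least 10 normalized reads in the higher group, 179 were higher and 25 lower. Most regions were short. A width of 500 bp was found for 994 of the higher regions (52.7%) and 127 of the lower (62.9%), and the widest region of each direction spanned 1250 and 2750 bp. Per kb of region, the level of the higher group had a median of 13.4 normalized reads in higher regions and of 14.1 in lower regions.

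Position with respect to genes differed between the directions. Of the 1885 higher regions, 319 (16.9%, Wilson 95% interval 15.3% to 18.7%) lay inside or overlapped their nearest gene, against 66 of the 202 lower regions (32.7%, interval 26.6% to 39.4%). The intervals do not overlap, cover counting error only, and treat neighboring regions as independent. Among regions with at least 20 reads, the shares were 19.1% (76 regions, interval 15.6% to 23.3%) and 32.7%. The 1566 higher regions outside genes lay at a median of 104642 bp from the nearest gene, and the 136 lower regions at 41537 bp. More than 100 kb from any listed nearest gene lay 800 higher regions (42.4%, interval 40.2% to 44.7%) and 32 lower regions (15.8%, interval 11.5% to 21.5%). The share on the upstream side was similar in both directions, at 58.4% of the higher and 58.1% of the lower regions outside genes. The share that the same annotation gives to random positions was not computed.

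**Figure D2:**
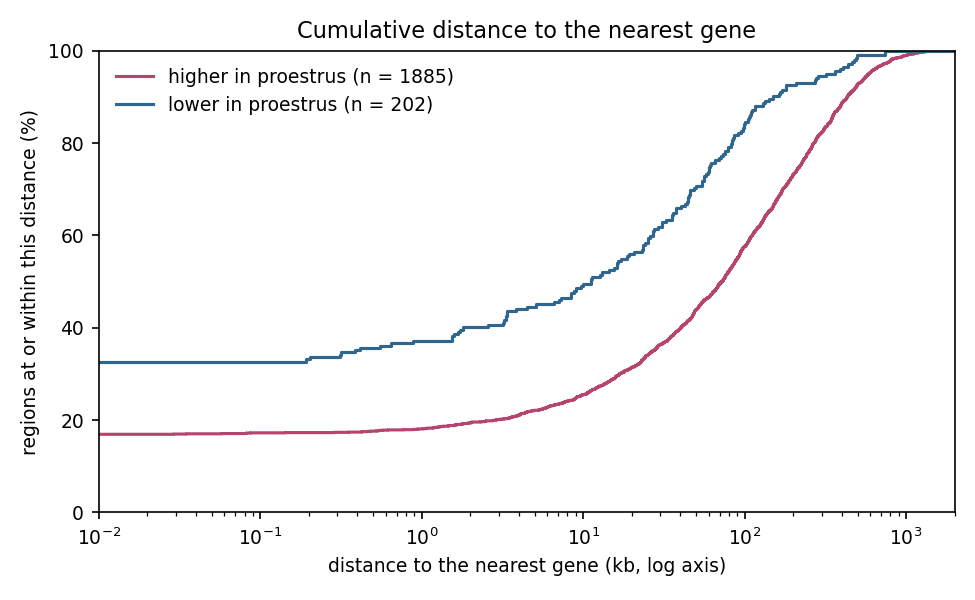
Cumulative share of regions (%) against the distance to the nearest gene in kb on a log axis, with regions inside or overlapping a gene counted from the left edge, for 1885 regions higher and 202 regions lower in proestrus. The lines start at 16.9% and 32.7%, and the line of the lower regions stays above that of the higher regions out to 100 kb, where 42.4% of the higher and 15.8% of the lower regions remain to be counted.

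Inside genes, 313 higher regions lay in hosts with a median annotated length of 117975 bp, of which 173 (55.3%) were longer than 100 kb, and 61 lower regions lay in hosts with a median of 63881 bp, of which 24 (39.3%) were longer. Regions of both directions were spread along their hosts, with a median place at 34.0% and 35.7% of the gene's length from its start. Starts of genes were rarely met. Within 1 kb of the annotated start of the nearest gene lay 25 higher regions (1.33%, Wilson 95% interval 0.900% to 1.95%) and 12 lower regions (5.94%, interval 3.43% to 10.1%). Within 5 kb, these were 129 (6.84%) and 31 (15.3%). The start itself was overlapped by 4 higher and 2 lower regions.

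Among genes that could be named, Hat1 had a region within 1 kb of its start. Hat1 encodes the histone acetyltransferase that acetylates newly made histone H4 before its assembly into chromatin. The region lay on chromosome 3 of Rnor_5.0 (chr3:64511351-64511850), inside the gene and 448 bp from its start. It held 8.25 and 5.68 normalized reads in proestrus and 0, 0.92, and 0.63 in males, from 12 reads against 2. Its background was also higher in proestrus, with a log2 ratio of 2.06, and its enrichment was 2.31 in proestrus and 0.72 in males. The 250 bases before the start of Hat1 are shown as the promoter of a named gene that lies closest to a listed region, from RefSeq on the plus strand of the GRCr8 build (chr3:76624780-76625029), 5′ to 3′.
Hat1: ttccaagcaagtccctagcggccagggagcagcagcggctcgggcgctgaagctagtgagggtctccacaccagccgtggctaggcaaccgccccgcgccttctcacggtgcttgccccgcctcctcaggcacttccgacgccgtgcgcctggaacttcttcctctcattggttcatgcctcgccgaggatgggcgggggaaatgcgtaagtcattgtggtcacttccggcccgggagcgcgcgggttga
This stretch is 65.6% G or C. Neither GCGTGGGCG nor the shorter core GTGGGNG, which overlaps it, was found on either strand from 250 bases before to 50 after the start, hence no capitals are used. Across all 33469 RefSeq promoter windows of this length, 0.544% hold the 9-base element and 28.8% the shorter one. Of the 62 windows of the 55 named genes with an entry, 1 holds the 9-base element (that of Atp2a2) and 20 (32.3%) the shorter one. These windows are not the listed regions, whose own sequence was not analysed here.

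The balance of directions varied between chromosomes. Chromosome 2 held 213 higher and 9 lower regions, so that 4.05% were lower (Wilson 95% interval 2.15% to 7.52%), and chromosome 16 held 76 and 3 (3.80%, interval 1.30% to 10.6%). In contrast, 11 of 32 regions on chromosome 12 (34.4%, interval 20.4% to 51.7%) and 19 of 64 on chromosome 10 (29.7%, interval 19.9% to 41.8%) were lower. The lower share was 22.2% on chromosome 19, 20.8% on chromosome 17, 16.3% on chromosome 8, and 16.2% on chromosome 20. On chromosome 17, 7 of the 15 lower regions belong to a cluster at a gene described below, without which 8 of 65 regions (12.3%, interval 6.37% to 22.5%) were lower. Of the 11 lower regions on chromosome 12, 3 belong to a cluster of 4.60 kb described below, and the share without them was not computed. On the remaining autosomes, the lower share lay between the value of chromosome 16 and the 12.05% of chromosome 13. Higher regions outnumbered lower regions on each of the 20 autosomes.

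**Figure D3:**
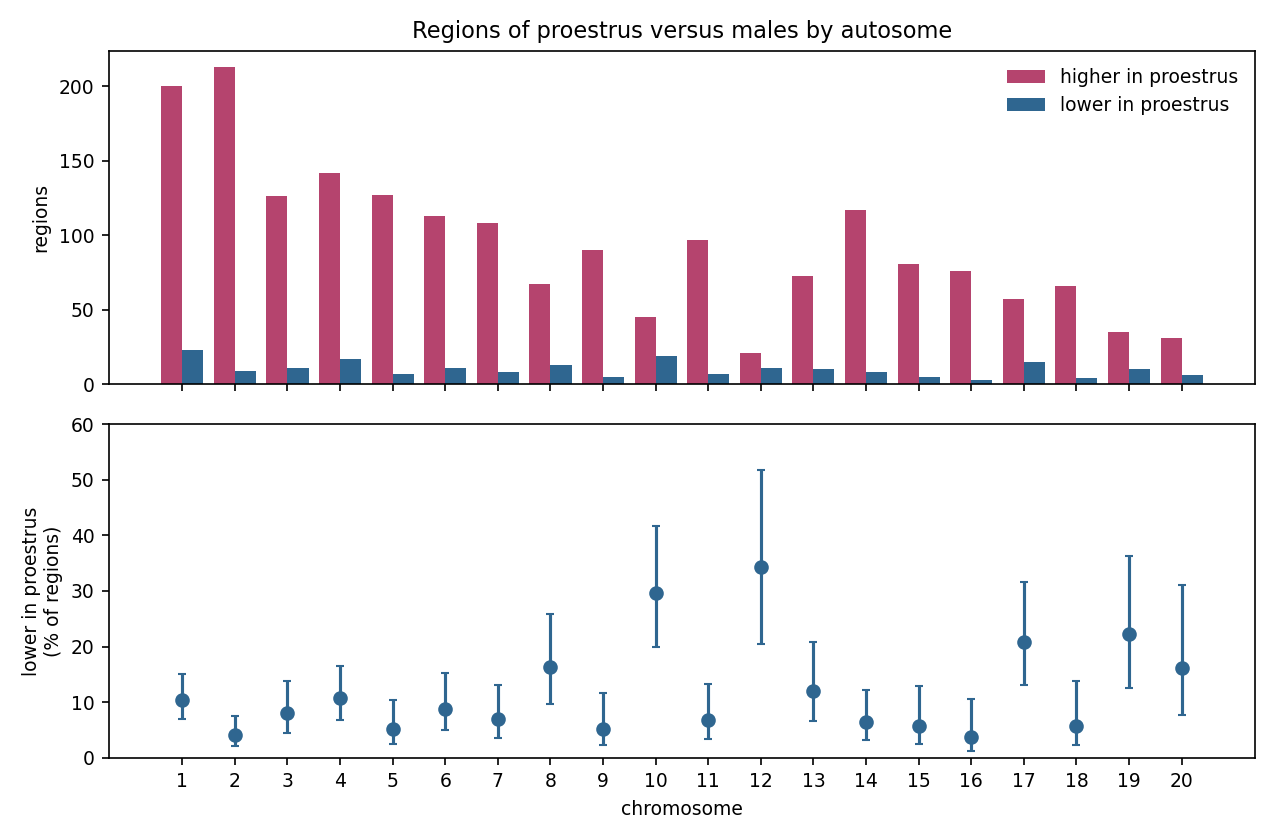
Number of regions higher and lower in proestrus on each autosome (top, bars) and the share that was lower in % with its Wilson 95% interval (bottom). Chromosomes 10 and 12 have the highest shares, 29.7% and 34.4%, and chromosomes 2 and 16 the lowest, 4.05% and 3.80%.

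The regions were nearest to 1618 genes, 1449 for higher and 187 for lower regions, and 18 genes had regions of both directions. Most regions were isolated. When regions of the same direction within 10 kb were joined, 1849 higher and 195 lower loci were left, of which 31 and 4 held more than 1 region. No adjacent pair of opposite direction lay within 10 kb. The closest such pair, chosen after its values were seen, lay 14450 bp apart past the end of Chic2 on chromosome 14. The first (chr14:35568951-35569450) held 8.25 and 5.68 normalized reads in proestrus and 0, 0.92, and 0.63 in males. The second (chr14:35583901-35584400) held 1.65 and 0 in proestrus and 5.56, 9.17, and 8.24 in males. Every library of the groups was thus in opposite order at these neighboring regions.

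A cluster of lower regions on chromosome 17 held close to the reads of all other lower regions together. Its 7 regions shared a nearest gene and formed 3 loci under joining within 10 kb. They spanned 57.0 kb (chr17:91079251-91136200) in and just past the gene ENSRNOG00000028913, which the sources used here do not name, and held 48.4% of all reads of the 202 lower regions. The strongest region (chr17:91123001-91125350), inside the gene, held 260.56 and 255.57 normalized reads in proestrus and 810.25, 513.48, and 753.85 in males, a log2 ratio of -1.42 that stayed between -1.60 and -1.30 with each library left out. The next (chr17:91127301-91130050), 204 bp past the end of the gene, held 125.33 and 122.51 in proestrus and 422.50, 288.83, and 407.04 in males, a log2 ratio of -1.59 (-1.74 to -1.49). All 5 libraries thus had signal here, at levels far above the median region. The smallest difference of any member also lay in this cluster (chr17:91090801-91091300), with 54.42 and 34.08 in proestrus and 80.61, 70.60, and 83.69 in males, a log2 ratio of -0.82 (-1.20 to -0.52). Across the 7 regions, enrichment over background was 1.00 to 1.74 in proestrus and 0.93 to 1.37 in males, and the background itself was lower in proestrus, with log2 ratios from -2.47 to -1.35. The difference in reads was therefore accompanied by a difference in background of like size, and at the strongest region enrichment was 1.37 in both groups. Its part in the result was not tested. Without this cluster, the median log2 ratio of the lower regions was -3.60.

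A smaller cluster of lower regions on chromosome 12 lay at the start of ENSRNOG00000050166 and upstream of it, with 3 regions within 4.60 kb (chr12:37859201-37863800). The region over the start held 3.30 and 1.62 normalized reads in proestrus and 29.19, 19.26, and 18.39 in males, a log2 ratio of -3.18 (-3.78 to -2.76). The neighbors, 1800 and 3850 bp upstream, had log2 ratios of -2.72 and -1.97. The background was lower in proestrus by 2.50 to 3.81 on the log2 scale in these 3 regions, and enrichment ran against the reads at 2 of them. It was 2.30 in proestrus and 1.49 in males over the start, 0.91 and 1.06 at the next region, and 2.37 and 1.16 at the last.

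The nearest gene with most higher regions lay on chromosome 2, with 8 regions in 44.6 kb (chr2:166392801-166437400), 24306 to 68406 bp upstream of ENSRNOG00000009697. Proestrus libraries held 8.25 to 34.63 normalized reads in these regions and male libraries 0 to 14.58, so that males also had reads above their usual level in higher regions. The region with the highest level (chr2:166404851-166405800) held 34.63 and 21.09 in proestrus and 12.51, 9.17, and 3.17 in males, a log2 ratio of 1.75 (1.35 to 2.17). The last region (chr2:166436901-166437400) had the smallest log2 ratio of all higher members, 1.39 (1.02 to 1.69), with 14.84 and 17.04 in proestrus and 8.34, 7.34, and 2.54 in males. Enrichment was 0.74 to 2.50 in proestrus and 0.62 to 1.02 in males, and the background was higher in proestrus by 0.14 to 2.05 on the log2 scale. A locus of 3 higher regions lay on chromosome 11, 244281 to 262331 bp downstream of ENSRNOG00000047243. The first (chr11:22342301-22342800) held 6.60 and 7.30 in proestrus and 2.78, 0, and 0.63 in males. The next (chr11:22349851-22350450) held 4.95 and 8.11 against 0, 0.92, and 0, and the last (chr11:22360351-22361100) 6.60 and 11.36 against 4.17, 0.92, and 1.27. The groups did not overlap at any of them, as at all members, and the last rested on 18 reads in proestrus and 6 in males.

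**Figure D4:**
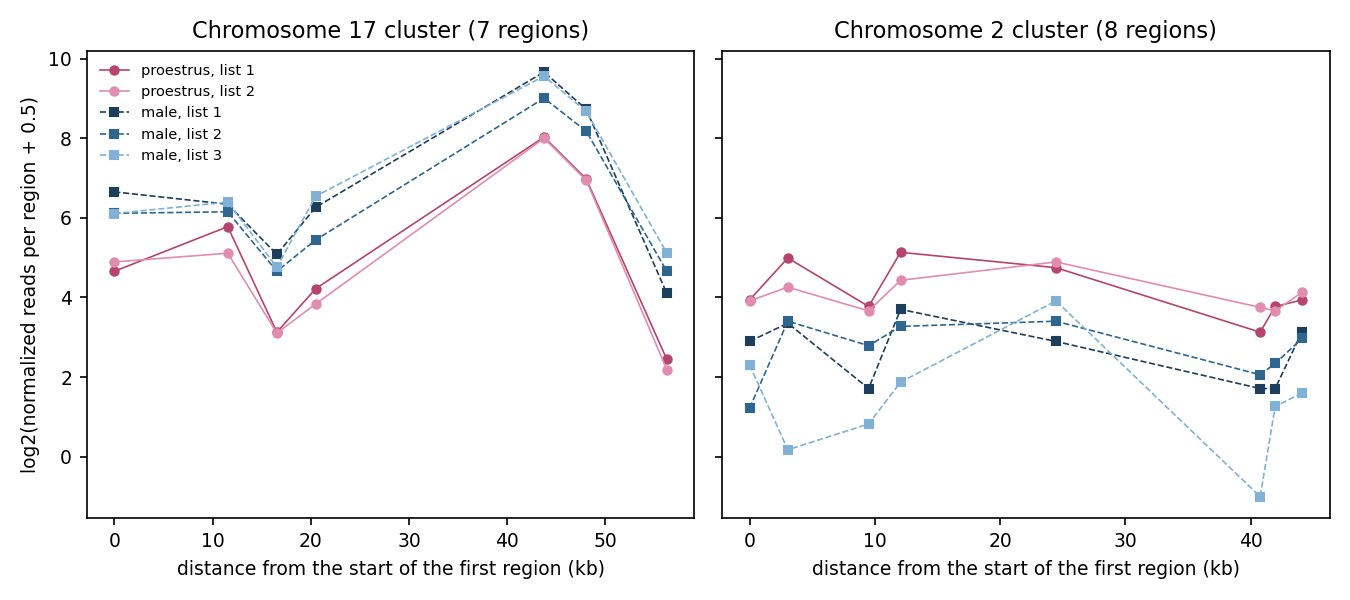
log2(normalized reads per region + 0.5) in each library (points joined by lines, solid for proestrus and dashed for males) against the distance in kb from the start of the first region, for the 7 regions on chromosome 17 (left) and the 8 on chromosome 2 (right). On chromosome 17 all libraries peak at the same region, at 255.57 to 260.56 normalized reads in proestrus and 513.48 to 810.25 in males; on chromosome 2 every proestrus library lies above every male library in each region.

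The highest level among higher regions was found on chromosome 20 (chr20:29290601-29291850), 71438 bp past the end of the gene ENSRNOG00000042916. Proestrus libraries held 56.07 and 59.23 normalized reads and males 2.78, 5.50, and 1.27, and with 117 reads it was the sole higher region with at least 100. Its log2 ratio of reads was 4.18 (3.80 to 4.83), but enrichment was 1.15 and 0.95, and the log2 ratio of the background was 3.90 as well in favor of proestrus. Next in level, apart from the chromosome 2 cluster, was a region on chromosome 14 (chr14:22368351-22369550) with 24.74 and 24.34 in proestrus and 11.12, 5.50, and 0 in males, where the male libraries covered a wide range. Among higher regions with at least 20 reads, the largest log2 ratio with 0.5 added to both means was 4.07, on chromosome 1 (chr1:148877751-148878700), where proestrus libraries held 11.54 and 11.36 and the males 0, 0, and 0.63. The region on chromosome 20 followed with 3.98. Next came regions on chromosome 1 (chr1:24418001-24418850, with 6.60 and 11.36 against 0, 0.92, and 0.63), chromosome 8 (chr8:84176901-84177500, with 18.14 and 7.30 against 1.39, 0.92, and 0.63), and chromosome 2 (chr2:41582951-41583550, with 8.25 and 13.79 against 0, 0, and 2.54).

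Among lower regions, the largest differences on that scale were regions without a read in proestrus. Both regions of a locus on chromosome 14 were listed at 0 in proestrus, where the deposited enrichment was not finite, so that no background could be computed for proestrus. The first (chr14:95354101-95354900) held 11.12, 18.34, and 13.31 in males, at least 5.76-fold lower in proestrus, and the second (chr14:95355301-95356700) held 23.63, 18.34, and 32.34, at least 10.01-fold lower. Enrichment in males was 1.18 and 1.20 at these regions, against a median of 1.83 over all lower regions. The male reads thus lay little above the male background, and its part in the difference was not tested. The regions lay 744295 and 742495 bp from the nearest gene. A region inside an unnamed gene on chromosome 8 (chr8:69746751-69747600) was listed at 0 in proestrus and at 11.12, 11.00, and 11.41 in males, at least 4.52-fold lower, and another on chromosome 6 (chr6:153578151-153578750) at 0 and at 6.95, 9.17, and 11.41, at least 3.71-fold lower. The males varied little at the former, with 11.18 ± 0.211 (SD, n = 3). Outside the cluster on chromosome 17, the strongest lower region lay on chromosome 7 (chr7:5317601-5319150), with 18.14 and 13.79 in proestrus and 84.78, 70.60, and 96.37 in males, a log2 ratio of -2.39 (-2.61 to -2.21) with a background log2 ratio of -1.88.

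Gene symbols were at hand for 66 of the 1618 nearest genes (4.08%), with 59 higher and 14 lower regions. The names came from the first 1258 rows of the study's gene table, which is ordered by identifier, and are no even sample of the genome. Of these 73 regions, 66 lay on chromosomes 3, 10, 11, 12, 14, and 20, and 19.2% were lower, against 9.68% of all autosomal regions. Inside or within 5 kb of such a gene lay 24 of these higher and 10 of these lower regions. Most rested on few reads.

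Gabrb1, which encodes the beta-1 subunit of the GABA-A receptor, the main fast inhibitory receptor of the brain, had a region inside it, 10475 bp from its start (chr14:38913101-38913600). It held 4.95 and 7.30 normalized reads in proestrus and 0, 1.83, and 0 in males, from 12 reads against 2. Epha5, an ephrin receptor with roles in axon guidance, had a region deep inside the gene, 116144 bp from its nearest end (chr14:25666751-25667300), with 6.60 and 5.68 in proestrus and 0, 0.92, and 0 in males. Phyhipl was placed on the synaptic vesicle and scaffold list described below, and a synaptic role of it was not examined. It had a region 3648 bp past its end with 4.95 and 6.49 in proestrus and no read in males, at least 4.12-fold higher. Il1rap, the accessory chain of the interleukin-1 receptor that also organizes synapses, had a region 1941 bp upstream (chr11:83121451-83121950). It held 8.25 and 10.55 in proestrus and 0, 1.83, and 1.90 in males, a log2 ratio of 2.91 (2.33 to 3.36).

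Ets2, a transcription factor of the ETS family, had a region inside it, 2702 bp from its start (chr11:39609701-39610200), with 11.54 and 7.30 in proestrus and 4.17, 0, and 1.27 in males, a log2 ratio of 2.38 (1.79 to 3.89). Ncor1, a corepressor of nuclear receptors, had a region inside with 6.60 and 7.30 in proestrus and 1.39, 0.92, and 1.27 in males, a log2 ratio of 2.55 (2.39 to 2.67). Here the libraries within each group were close to each other. Atp2a2, the calcium pump of the endoplasmic reticulum, had 6.60 and 7.30 in proestrus and 0, 1.83, and 0.63 in males. Elac1, an endonuclease that trims the end of transfer RNA, had 8.25 and 9.74 against 1.39, 1.83, and 1.27, a log2 ratio of 2.58 (2.46 to 2.76).

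Lnx1, a ubiquitin ligase that binds Numb, had a region inside with 14.84 and 7.30 in proestrus and 2.78, 2.75, and 0.63 in males, a log2 ratio of 2.43 (1.83 to 2.85). Grifin, a lens protein related to galectins, had a region 58 bp past its end with 16.49 and 5.68 in proestrus and 4.17, 2.75, and 1.27 in males, a log2 ratio of 2.02 that dropped to 1.06 without the first proestrus library. Both regions show the first proestrus library well above the second.

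Arhgap24, Maged2, and Pan3, a subunit of the deadenylase that shortens the tails of messenger RNA, had a pair of higher regions each. The regions of Maged2 (chr5:37836901-37837650 and chr5:37838801-37839600) lay 1150 bp apart. They held 11.54 and 9.74, and 14.84 and 8.92, in proestrus, against 2.78, 2.75, and 0, and 1.39, 0, and 3.17, in males. The RefSeq table of GRCr8 lists the promoter of Maged2 on chromosome X, whereas the deposited annotation of Rnor_5.0 places this copy on chromosome 5, and the other 54 of the 55 named genes with a promoter entry lay on the same chromosome in both. Whether reads of the X-linked sequence were counted here was not tested. The remaining higher regions in this group were in Btbd9, Ccdc64, Dcbld2, Dnajc1, Kifap3, Snx29, and Sobp, with 6.53 to 8.57 normalized reads on average in proestrus and 0.42 to 1.91 in males.

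Of the 10 lower regions inside or within 5 kb of a named gene, 7 held no read in proestrus. Slc46a3, a transporter of the lysosomal membrane, had the largest difference of these, with no read in proestrus and 8.34, 17.42, and 12.68 in males in a region 3688 bp inside the gene (chr12:10845901-10846750), at least 5.18-fold lower. Cit, citron kinase, and Bcr each had a region inside with 0 and 0 in proestrus and 5.56, 6.42, and 6.97 in males, at least 2.55-fold lower. Wipi2, which takes part in forming autophagosomes, had 0 and 0 against 8.34, 6.42, and 8.88, at least 3.18-fold lower. Pdap1 and Arpc1b, a subunit of the Arp2/3 complex that nucleates actin, are neighbors on chromosome 12. Pdap1 had 6.95, 6.42, and 7.61 in males, Arpc1b 6.95, 6.42, and 6.34, and both had none in proestrus.

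Cabin1, an inhibitor of calcineurin, was the named gene with a read in each proestrus library, with 1.65 and 0.81 against 8.34, 10.09, and 11.41 in males. Dgkg, a diacylglycerol kinase, had 1.65 and 0 against 11.12, 9.17, and 6.97. Hlcs, the enzyme that attaches biotin to carboxylases, had 0 and 0.81 against 6.95, 7.34, and 8.88. Alx4, a homeobox gene, had 0 and 0 against 8.34, 8.25, and 5.07. In each of these genes, the males lay at 5.07 or above. Enrichment in males was 0.97 at Slc46a3, the sole one of these 10 regions under 1, and 2.65 at Dgkg, the highest. At Dgkg, enrichment in proestrus was 1.86, and the background was lower in proestrus, with a log2 ratio of -2.96 next to -3.47 for the reads. Its part in the difference was not tested.

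**Figure D5:**
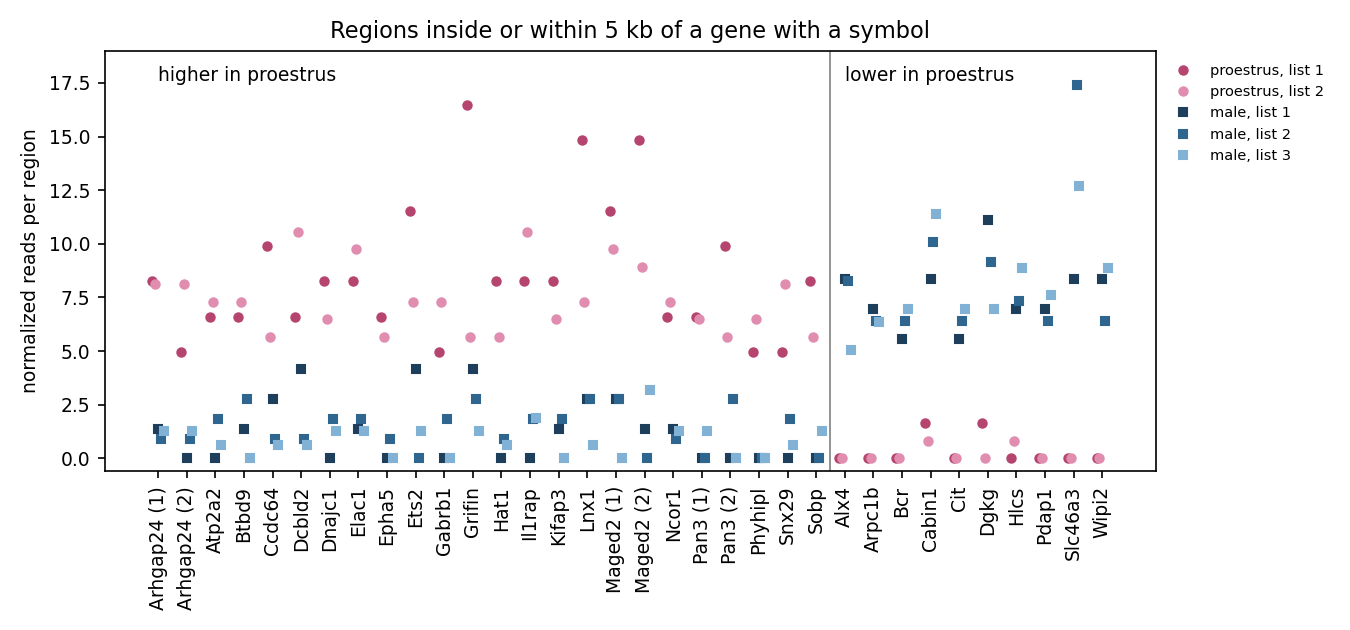
Normalized reads per region in each library (circles for proestrus, squares for males) for the 24 higher and the 10 lower regions inside or within 5 kb of a gene with a symbol. The groups do not overlap at any region, with the highest male value among the higher regions (4.17) at Dcbld2, Ets2, and Grifin, and among the lower regions (17.42) at Slc46a3.

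Gene groups relevant to the cortex and to ovarian hormones were described through lists of 143 symbols, of which 118 had an identifier in the names at hand. The lists were drawn largely from these names and with earlier results of these data known, so that their shares describe the chosen genes and are no evidence that a group holds more regions than others. Among all names, 5.33% of the 1238 identifiers with a symbol had an autosomal region here. Axon guidance and cell adhesion had 5 of 24 genes with a region (20.8%). These were Cxadr, Epha5, Itga6, Ncam2, and Sema5b, whose 7 regions were all higher in proestrus, as were 90.3% of all autosomal regions. The median log2 ratio was 2.83 over the 6 of them with a read in males, against 2.86 over all higher regions with one. All but that of Epha5 lay outside the genes, 46175 to 282088 bp away. Ncam2, a neural cell adhesion molecule, had a region upstream with 9.89 and 5.68 normalized reads in proestrus and 1.39, 0.92, and 0 in males, and another downstream with 8.25 and 10.55 against 4.17, 1.83, and 0. Sema5b, a semaphorin, had 6.60 and 7.30 against 0, 2.75, and 0.63, and Itga6, an integrin subunit, 6.60 and 8.92 against 0, 1.83, and 1.27. Cxadr, a cell adhesion molecule and virus receptor, had a region with 4.95 and 6.49 against none in males and another with 6.60 and 7.30 against 0, 1.83, and 1.27.

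Transcription factors had 3 of 32 genes with a region (9.38%), those being Ets2, Runx1, and Sox9, each with a higher region. The list does not hold every transcription factor. Alx4, described above with a lower region, and Pou1f1, with a higher one, are not on it. The regions nearest to Runx1 and Sox9 lay 258232 and 314687 bp upstream. Runx1 had 8.25 and 8.92 in proestrus and 2.78, 0.92, and 0.63 in males, and Sox9 8.25 and 6.49 against 1.39, 0.92, and 0.63. Ovarian hormone signalling had 1 of 9 genes (11.1%), Nrip1, a corepressor that binds the estrogen receptor. Its regions lay 105887 and 113287 bp upstream and held 8.25 and 6.49 against 2.78, 0, and 1.27, and 4.95 and 8.11 against 1.39, 0.92, and 1.27. GABA signalling had 1 of 8 genes (12.5%, Gabrb1) and the synaptic vesicle and scaffold list 1 of 19 (5.26%, Phyhipl). Glutamate receptors (0 of 4), ion channels and their partners (0 of 16), and receptor tyrosine kinases (0 of 6) had none. Each gene was placed on a single list, so that Epha5, also a receptor tyrosine kinase, and Gabrb1, also an ion channel subunit, are not counted in these zeros. No gene of these lists had a lower region. With 14 regions of 11 genes in all, and 9.68% of all autosomal regions lower, a count of 0 is near the share over all regions, and nothing about the lists is read from it.

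Enrichment over background was compared with the reads across all members. In higher regions, enrichment had a median of 2.54 in proestrus (1876 regions with a finite value) and 0.39 in males (1881 regions), where 1733 regions (92.1%) were under 1. In lower regions it had a median of 0 in proestrus (200 regions) and 1.83 in males (202 regions), and 6 of 202 regions (2.97%) were under 1 in males. The background, computed as mean divided by enrichment, had a median log2 ratio of proestrus to males of 0.17 over 1807 higher regions and of -0.49 over 78 lower regions. It was higher in proestrus by more than 1 on the log2 scale in 356 of the higher regions (19.7%), and lower by more than 1 in 27 of the lower regions (34.6%). Enrichment went against the direction of the reads in 19 higher and 8 lower regions, and of the latter, 5 belonged to the cluster on chromosome 17 and 2 to that on chromosome 12. The sources used here do not say what the background was made from, and its part in these differences was not tested.

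Diestrus females were set beside the members through the regions that overlap by at least 1 bp in the other comparisons, which share the proestrus or the male libraries and were normalized separately. The regions of these comparisons can differ in width from the members. They were also listed for a difference between their own groups, so that a difference there follows from the listing. Members without an overlap have no diestrus value here. Of the members, 146 higher regions (7.75%) and 3 lower regions (1.49%) overlapped regions of proestrus versus diestrus, which are 8.83% and 0.181% of the 1654 autosomal rows there. At these 146 regions, the diestrus mean had a median of 0.79 and the proestrus mean in the same table a median of 6.75, while the male mean in the present table had a median of 1.36 (range 0 to 6.07). The chromosome 20 region with the highest level was among them. There, the diestrus libraries held 4.27, 37.80, 4.23, and 0, so that 1 of 4 was close to the 44.73 and 50.76 of proestrus in that table and the others were not. Nrip1 was the one listed gene with such a region, with 1.71, 0, 0, and 2.08 in diestrus against 9.21 and 5.56 in proestrus.

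The 3 lower regions were the strongest pair of the chromosome 17 cluster and a region over the start of a gene on chromosome 2 (chr2:54088801-54089400). The latter had no read in proestrus, 6.95, 6.42, and 8.24 in males, and 5.97, 8.82, 6.35, and 7.29 in diestrus in its own table. Males and diestrus females both had reads there that the proestrus libraries lacked. Both comparisons listed this region as lower in the same proestrus libraries, so that this pattern follows from the listing.

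With diestrus versus males, 8 higher (0.424%) and 17 lower regions (8.42%) overlapped, or 1.26% and 2.84% of the 634 autosomal rows there. Over the 18 overlapping pairs of lower regions, the diestrus mean had a median of 1.29 and the male mean in the same comparison a median of 12.7. The proestrus mean had a median of 1.23 in the present comparison. The difference of diestrus from males at these pairs follows from the listing. The region of Slc46a3 held 0.95, 0, 2.37, and 1.18 in diestrus against 7.47, 15.51, and 11.16 in males of that table. Both regions of the chromosome 14 locus were at 0 in all 4 diestrus libraries as in proestrus, and at 9.95, 16.33, and 11.71 and 21.15, 16.33, and 28.45 in males. The 3 regions of the chromosome 12 cluster lay inside wider regions of that comparison. These wider regions had diestrus means of 6.14 ± 2.98, 5.06 ± 2.52, and 4.64 ± 1.58 (SD, n = 4), against 25.79 ± 4.81, 23.91 ± 4.54, and 25.54 ± 3.99 in males (SD, n = 3). Among the 8 higher regions, Lnx1 held 6.68, 6.87, 7.10, and 10.64 in diestrus and 1.24, 3.27, and 1.12 in males. The strongest region of chromosome 17 was the sole member that overlapped regions of both other comparisons.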

How the data were processed

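Egr1 ChIP-seq libraries of proestrus females (n = 2) and males (n = 3) were used. Per the labels and methods, reads were trimmed (Trimmomatic 0.32), mapped to Rnor_5.0 with Bowtie2 2.1.0, handled with SAMtools 0.1.19 and Picard 1.84, freed of duplicates and outlier libraries, compared with DiffReps, and annotated to the nearest gene with ChIPpeakAnno. The sources used here do not give the DiffReps settings. Group means, deposited as normalized reads in each region, are a coverage signal made by the authors, and the deposited enrichment is a ratio of that mean to a background. The deposited calls, fold changes, p-values and adjusted p-values of the authors' own comparison, and coordinates of their test windows, were not used.

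Since the regions were selected by the authors for a difference between these same libraries, no test of the difference between groups was run. Dixon's criterion was applied to diestrus libraries alone, within their group. Reads were recovered by dividing values by the value of 1 read, a step tested on simulated data. Shares carry Wilson 95% intervals, which cover counting error only, and SDs are between libraries. Ranges in brackets after a log2 ratio are its values with each library left out. Members and lists were chosen with earlier results of these data known. The regions named were the 5 per direction of highest level, the 5 of largest ratio with at least 20 reads, those inside or within 5 kb of a gene with a symbol (from the first 1258 rows of the study's gene table), those of listed genes, the 3 loci of each direction with most regions, and those overlapping both other comparisons. Among higher loci, 3 tied at 3 regions each, and not all of these were taken. Computations used scipy 1.17.1, pandas 2.3.3, numpy 2.4.6, and Python 3.11.15.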

Additional observations from a re-analysis of the deposited data

Results flagged for a closer look

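Of the 175 sets of 4 diestrus libraries at pairs of regions that overlap, 34 were examined, namely those of diestrus versus males, of lower members, and of members that the text names by rule. By Dixon's criterion, 1 library stood apart from the others in 5 of the 34. Chance gives about 1 in 20 for continuous values, a rate that does not hold for counts of few reads. At the chromosome 20 region with the highest proestrus level, the high library held 37.80 normalized reads, and at the region of Lnx1 it held 10.64. At a region of chromosome 19 (chr19:53198451-53198950), 1 library held 1.91 and the others none, a pattern that meets the criterion by construction. In the chromosome 17 cluster, 1 library was low in narrower regions of the other comparisons. It held 70.93 inside the strongest region (chr17:91124401-91125300) when compared to males. Inside the next region (chr17:91127351-91128250), it held 29.17 when compared to proestrus. These values cannot be set beside those of the wider members. What sets these libraries apart was not tested.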

How the results depend on the processing

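The share of higher regions was 66.3% with at least 20 reads, 87.7% with a mean of at least 10 normalized reads, and 93.6% with all rows. Leaving out a library cannot move it from 90.3%, since the groups do not overlap in any region, and a minimum of 20 reads removes no lower region. With 0.5 added to both means and regions at 0 included, the median log2 ratio was 2.41 for higher and -3.81 for lower regions. With each library left out, it lay between 2.58 and 2.97 for higher regions and between -3.51 and -2.27 for lower regions, where leaving out the first proestrus library gave -3.30 and the second -2.27. With a proestrus library left out, lower regions without a read in the other have no ratio and drop out. Without the chromosome 17 cluster, an alternative chosen after seeing the data, the median of lower regions was -3.60. Regions inside or within 5 kb of a gene were 22.1% of higher and 44.6% of lower regions, and those inside or overlapping a gene were 19.1% of higher regions with at least 20 reads. The numbers of loci and of regions shared with the other comparisons stayed within 1.5 times under their alternatives. No paired analysis was possible because the library lists carry no sample names. Per the methods, samples of the different groups were pooled in the same tubes for sequencing. Which of the listed libraries shared a tube is not known, and this batch was not accounted for. The ratios rest on few reads per region, with a median of 17 in higher and 26 in lower regions.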
